A study of Apis mellifera with 12 samples.

Results

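In honey bee queen ovaries, 798 of 20244 circular RNAs (circRNAs) were listed mainly in virgin queens. They were chosen by their deposited read counts: a count above 0 in at least 2 of the 3 virgin libraries, and in at most 1 of the 3 libraries of each other group. They made up 3.94% of the circRNAs in the table and 19.4% of the 4113 that were listed in at least 2 virgin libraries. Since read counts chose them, their counts by group are given here as a description and without a test. What the rule did not use was the genomic span, the position, the neighbouring circRNAs of the same locus, and, when the rule was applied to a subset of the libraries, the libraries left out.

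Back-splicing joins a downstream splice donor to an upstream splice acceptor of the same precursor RNA, which closes the stretch between them into a ring. One gene can give several such rings, which may share a donor or an acceptor, and back-splicing competes with ordinary splicing of the same transcript. A ring has no free end and resists exonucleases. The ovary of a virgin queen holds immature ovarioles, while that of a laying queen holds strings of developing eggs with their nurse and follicle cells, so the make-up of the tissue differs as well as its RNA.

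Each group held 3 ovary libraries. The first group came from virgin queens, the second from normal, egg-laying queens. The caged queens had been kept for 7 days in a cage in their own colony, which stopped laying. The released queens had spent the same time caged and were taken on day 8, after laying had resumed. The virgin samples had no treatment, and the labels give no strain, genotype or age in days for any group. Mating and age therefore cannot be told apart between virgin queens and the others, while virgin and caged queens were alike in not laying. In whole ovaries fewer cells of a type and less RNA per cell cannot be told apart. Nothing in the labels tells whether replicates came from different queens, so p-values measure only the spread between these samples. Total circRNA reads per library ran from 66487 in virgin replicate 2 to 206697 in caged replicate 1, and the other virgin libraries held 201414 and 119117. Levels are CPM, counts divided by the library total of circRNA reads and scaled to 1000000. A circRNA is counted at its single back-splice junction, so CPM carries no length term, and no count of 1 was present: the smallest count above 0 was 2. Intervals on shares of reads cover counting error only, and not the choice of the circRNAs by these same counts.

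The chosen circRNAs were of low abundance. In the virgin libraries they were listed 1745 times, and 37.1% of these counts were of 2 reads, the smallest value in the table, while 28.5% were of 5 reads or more and the highest was 44. The median circRNA had 7 reads over the 3 virgin libraries together, 248 had at least 10 and 55 had at least 20. Their mean virgin CPM had a median of 18.8, quartiles of 13.9 and 28.4, and a maximum of 149. The 2312 circRNAs listed in at least 2 libraries of every group, called widely listed here, had a median virgin CPM of 102 and a maximum of 24376. The 90th percentile of the chosen circRNAs, 45.3 CPM, lay just under the lower quartile of the widely listed ones, 45.6 CPM, and 4 of the chosen ones reached 100 CPM.

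Virgin replicates 1, 2 and 3 listed 720, 407 and 618 of the 798. In the laying libraries 88, 114 and 44 were listed, in the caged libraries 101, 83 and 113, and in the released libraries 75, 124 and 65. Summed, the chosen circRNAs took 1.81% of circRNA reads in virgin replicate 1 (exact 95% interval 1.75 to 1.87), 1.99% in replicate 2 (1.88 to 2.09) and 1.99% in replicate 3 (1.92 to 2.07). Their share was 0.156% to 0.192% in laying, 0.145% to 0.204% in caged and 0.148% to 0.252% in released ovaries. Every virgin library listed 149 of them and 2 virgin libraries listed the other 649. The commonest combination of 2 was replicates 1 and 3, with 391 circRNAs. No other library listed 274 of the 798 (34.3%), 1 other library listed 295, 2 others listed 175 and 3 others listed 54. The strictest pattern, 3 virgin libraries and no other, held 38 circRNAs with a median virgin CPM of 30.6. Where the chosen circRNAs did appear outside the virgin group, 53.5% of the 807 counts were of 2 reads and 7 counts reached 10.

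Among the most abundant, ame_circ_0003649 on LG12 (544695 to 548092, minus strand, in the deposited Amel_4.5 coordinates) had 44, 3 and 22 reads in virgin replicates 1, 2 and 3, which is 149 ± 91.9 CPM (SD, n = 3). It had 2 reads in laying replicate 3, 11 in caged replicate 3, and was listed at 0 in the other 7 libraries. Caged replicate 3 thus stood above virgin replicate 2 for this circRNA, at 62.4 against 45.1 CPM, and the groups overlapped. By contrast, ame_circ_0001442 on LG10 (5605442 to 5679854, plus strand) had 32, 13 and 11 virgin reads, or 149 ± 52.3 CPM, and was listed at 0 in all 9 other libraries. It was also the third longest of the 798, at 74412 nt between its ends.

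On LG6, ame_circ_0016228 (17781177 to 17781549, plus strand) had 31, 8 and 13 virgin reads, 128 ± 23.3 CPM, the smallest relative spread of the 4 highest. It was also listed once in each other group, with 6, 5 and 10 reads in laying replicate 1, caged replicate 3 and released replicate 2. On LG4, ame_circ_0014344 (9597115 to 9597567, minus strand) had 24, 3 and 17 virgin reads and elsewhere only 2 reads, in released replicate 1. Single virgin libraries weighed heavily on others: ame_circ_0002935 on LG11 (6410825 to 6418068, minus strand) had 5, 14 and 7 reads, where the 14 came from the shallowest library and gave 98.1 ± 98.9 CPM. For ame_circ_0018750 on LG8 (5271863 to 5273943, minus strand) the virgin reads were 16, 0 and 25, so the shallowest virgin library did not list it at all.

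LG1 held neighbouring members that shared one end. Both ame_circ_0008721 (18160207 to 18163282, minus strand) and ame_circ_0008720 (18160207 to 18161520) began at the same position, the donor side on this strand. They had 20, 5 and 13 reads, and 14, 5 and 12 reads, in the virgin libraries, at 94.5 ± 17.5 and 81.8 ± 16.6 CPM. Outside that group each was listed in 2 libraries with at most 4 reads. The other 4 of the 12 highest were ame_circ_0003900 (16, 4 and 12 virgin reads), ame_circ_0002731 (17, 7 and 6), ame_circ_0004318 (22, 7 and 3) and ame_circ_0003960 (2, 8 and 13), at 79.8 to 80.1 CPM on average. Their highest count in any other library was 7, for ame_circ_0002731 in caged replicate 1.

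**Figure D1:**
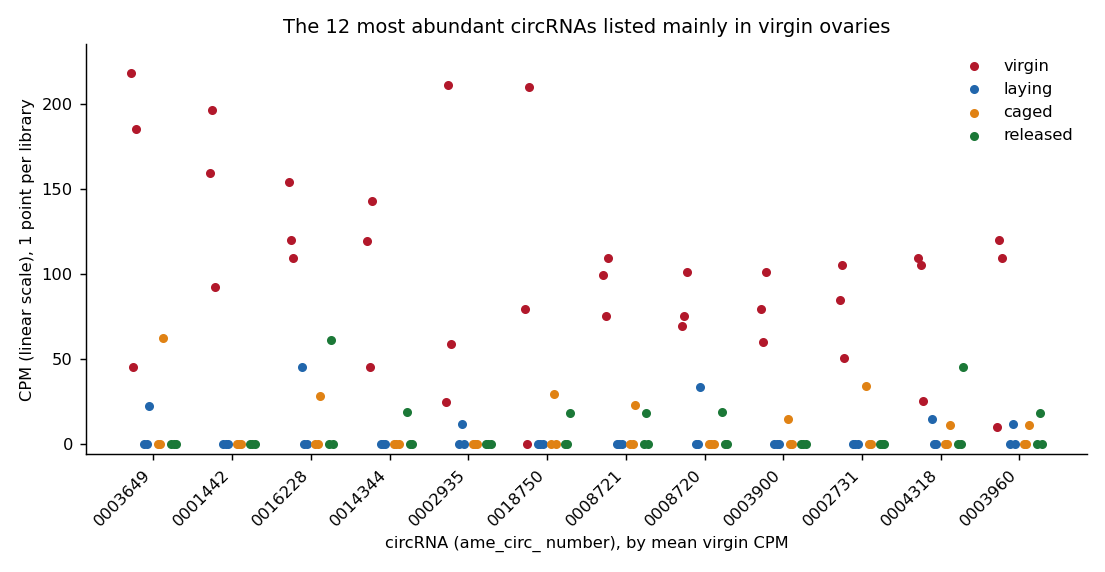
CPM (linear scale) in each of the 12 libraries for the 12 circRNAs with the highest mean virgin CPM, 1 point per library and coloured by group. Virgin points spread from 0 to 218 CPM, and most points of the other groups lie at 0; ame_circ_0001442 has no point above 0 outside the virgin group.

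Of the circRNAs listed in all virgin and no other libraries, the 6 next in abundance ran from 63.9 ± 17.4 CPM for ame_circ_0015720 on LG5 (16, 3 and 8 reads) to 45.8 ± 31.2 CPM for ame_circ_0009490 on LG1 (2, 4 and 8 reads). Between them were ame_circ_0019387 (6, 8 and 3 reads), ame_circ_0003112 (7, 7 and 3), ame_circ_0008199 (16, 3 and 4) and ame_circ_0013756 (5, 3 and 9). Their spans reached from 167 nt for ame_circ_0009490 to 26708 nt for ame_circ_0003112, so this strict pattern was not limited to one size.

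The rule's threshold passed between circRNAs of like counts. Just inside it, ame_circ_0008465 on LG1 had 12, 9 and 0 virgin reads and 10, 8 and 9 reads in 1 laying, 1 caged and 1 released library. Likewise ame_circ_0010550 (9, 9 and 0 virgin reads) and ame_circ_0007111 (15, 0 and 7) were each listed once in every other group, and 35 members had this minimal pattern. Just outside, 384 circRNAs were listed in at least 2 virgin libraries and in 2 libraries of exactly 1 other group. The most abundant of these, ame_circ_0017317 on LG7 (1604032 to 1654071, plus strand), had 74, 18 and 23 virgin reads, 277 ± 87.3 CPM, and also 11 reads in laying replicate 1, 7 and 14 in caged replicates 2 and 3 and 18 in released replicate 2. Next came ame_circ_0008454 (32, 15 and 17 virgin reads, 3 in caged replicate 3, 7 and 2 in released replicates 2 and 3). The last of the 3, ame_circ_0017310, had 38, 8 and 22 virgin reads, 5 in laying replicate 2, 8 and 6 in caged replicates 1 and 2 and 3 in released replicate 3.

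Turning the same rule to each group gave 277 circRNAs listed mainly in laying, 663 mainly in caged and 250 mainly in released ovaries, against 798 for virgin. Depth bears on these counts, since the caged group held 553316 circRNA reads and the virgin group 387018. When a circRNA counted as listed only at 30.1 CPM or more, the level that 2 reads give in the shallowest library, the counts were 672 for virgin, 133 for laying, 141 for caged and 135 for released. At this level 24.9% of the circRNAs listed in at least 2 virgin libraries were mainly virgin, against 5.99%, 6.16% and 5.85% for the other groups. Every circRNA listed in virgin replicate 2 passes this level, even with 2 reads. At 5 or more reads the counts were 432, 99, 338 and 71. A circRNA shared by laying, caged and released ovaries falls out of all of their sets, which does not apply to the virgin set in the same way.

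**Figure D2:**
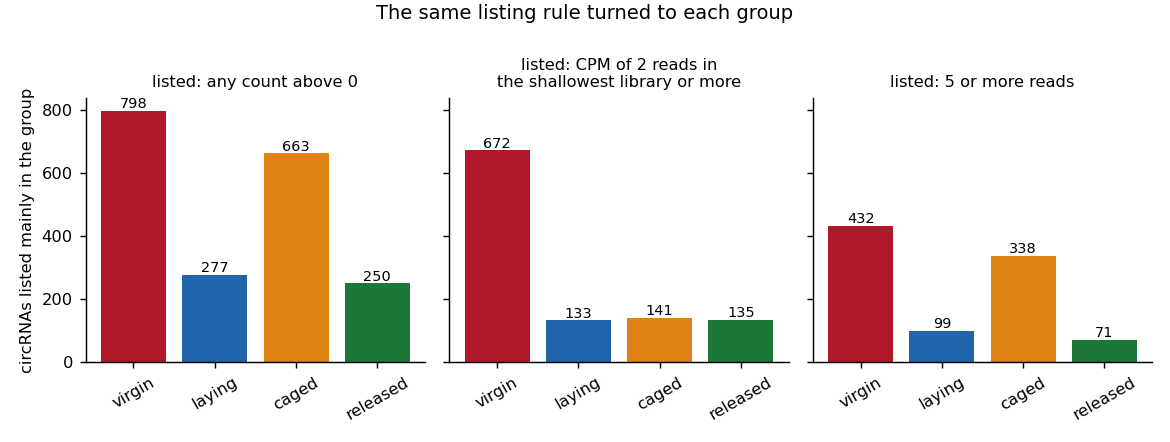
Number of circRNAs listed mainly in each group under 3 definitions of listed: any count above 0, at least the CPM of 2 reads in the shallowest library, and at least 5 reads. Bars start at 0. Virgin is highest in each panel, at 798, 672 and 432, and the caged count falls from 663 to 141 at the CPM level.

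The rule was next applied to 2 replicate numbers of every group and the libraries of the remaining number were read, none of which had chosen the circRNAs. Without replicate 1 the rule chose 380 circRNAs, of which 72.1% were listed in virgin replicate 1, against 29.5%, 40.5% and 24.2% in laying, caged and released replicate 1. Without replicate 3 it chose 465, with 52.3% listed in virgin replicate 3 against 14.4%, 33.1% and 17.8%. With the shallow replicate 2 left out it chose 838, and the shares were close together, at 34.7% in virgin replicate 2 against 28.4%, 31.6% and 31.9%.

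At 30.1 CPM or more the held-out virgin libraries listed 31.6%, 34.7% and 29.5% of the chosen circRNAs. The held-out laying libraries listed 3.95%, 3.70% and 6.45%, the caged 5.53%, 4.06% and 4.73%, and the released 6.84%, 8.83% and 4.95%. Every held-out virgin share lay above every held-out share of another group. Only the CPM threshold is matched here, not the counting error: in the shallow virgin replicate 2 all 291 listed circRNAs passed it, while in laying, caged and released replicate 2 it was passed by 31 of 238, 34 of 265 and 74 of 267. The summed CPM of the chosen circRNAs needs no threshold beyond the table's own. It was 11538, 18199 and 11241 in held-out virgin replicates 1, 2 and 3, against 2886, 5088 and 2155 in laying, 2995, 5869 and 3422 in caged, and 3149, 6438 and 2414 in released ovaries. No test was made of this, since the 3 choices draw on overlapping libraries. At 30.1 CPM or more, the sets chosen for the other groups did not separate as the virgin set did. For caged, 14.3%, 11.7% and 14.0% were listed in held-out caged libraries and 13.6%, 18.6% and 14.8% in held-out virgin ones. For released, the virgin share (16.4%, 13.9% and 18.2%) was at or above the released one (14.5%, 13.9% and 11.2%) for each replicate number. For laying, the laying share (14.9%, 20.1% and 13.1%) overlapped the virgin one (10.4%, 18.1% and 9.17%). The sets also differ by construction: a circRNA shared by laying, caged and released ovaries is in none of their sets. The contrast between the virgin set and the others is therefore partly set by the rule. About 2 in 3 of the circRNAs chosen for virgin were under 30.1 CPM, or listed at 0, in the virgin library that had not chosen them.

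**Figure D3:**
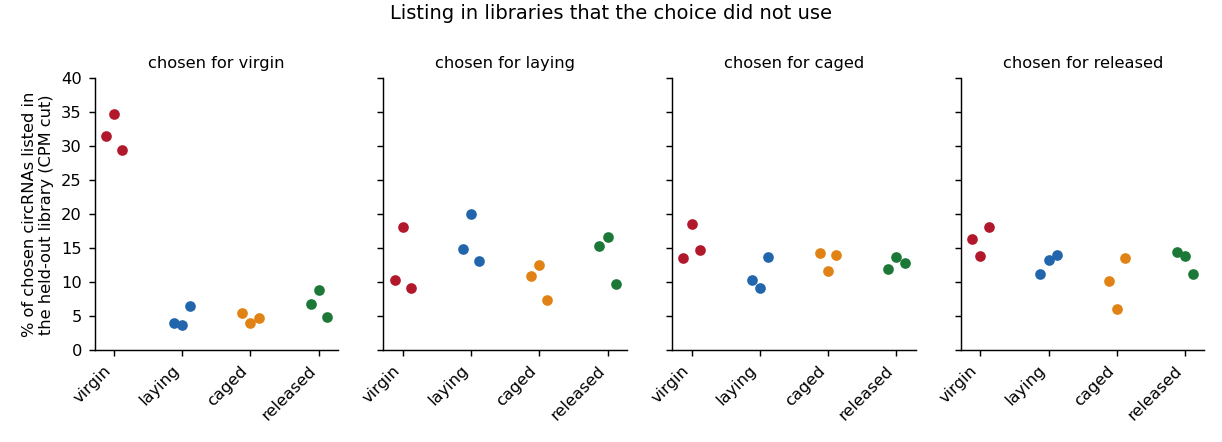
Percentage of the chosen circRNAs listed at 30.1 CPM or more in libraries the choice did not use, in 4 panels by the group the rule was turned to; each point is 1 held-out library. Only in the panel for virgin do the points of one group, at 29.5% to 34.7%, lie apart from all others, which end at 8.83%. The rule leaves circRNAs shared by laying, caged and released ovaries out of all of their sets, so the panels are not fully comparable.

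The chosen circRNAs spanned from 151 to 80891 nt between their ends, introns included, with a median of 1202 nt and quartiles of 395 and 4814 nt. Spans of up to 500 nt made up 30.7%, those over 500 and up to 2000 nt 29.8%, those over 2000 and up to 10000 nt 24.3%, and longer ones 15.2%. Widely listed circRNAs had a median of 1826 nt (quartiles 640 and 6148), with 19.8% up to 500 nt and 16.8% over 10000 nt. All circRNAs in the table had a median of 802 nt, so the chosen ones lay between. The sets chosen by the same rule for laying, caged and released had medians of 1484, 2002 and 1356 nt. In the chosen set the median virgin CPM was 18.8, 18.4, 18.4 and 21.1 over the 4 span classes. These medians lie near the lowest mean virgin CPM in the set, 8.91, so nothing is read from their likeness.

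The longest, ame_circ_0018011 on LG8 (12169810 to 12250701, plus strand, 80891 nt), had 11, 0 and 10 virgin reads, and ame_circ_0016207 on LG6 (1713281 to 1790635, plus strand, 77354 nt) had 8, 0 and 11. Like the 74412-nt ame_circ_0001442, both were listed in no library of another group. The shortest were ame_circ_0008184 on LG1 (151 nt, with 4, 2 and 0 virgin reads), ame_circ_0001375 on LG10 (152 nt, with 7, 2 and 3) and ame_circ_0007511 on LG16 (152 nt, with 2, 0 and 4). Outside the virgin group, ame_circ_0001375 had 4 reads in laying replicate 3 and 2 in released replicate 3. Its 44.9 CPM in laying replicate 3 lay above its 34.8, 30.1 and 25.2 CPM in the virgin libraries. For ame_circ_0007511 there were 2 reads in caged replicate 3.

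**Figure D4:**
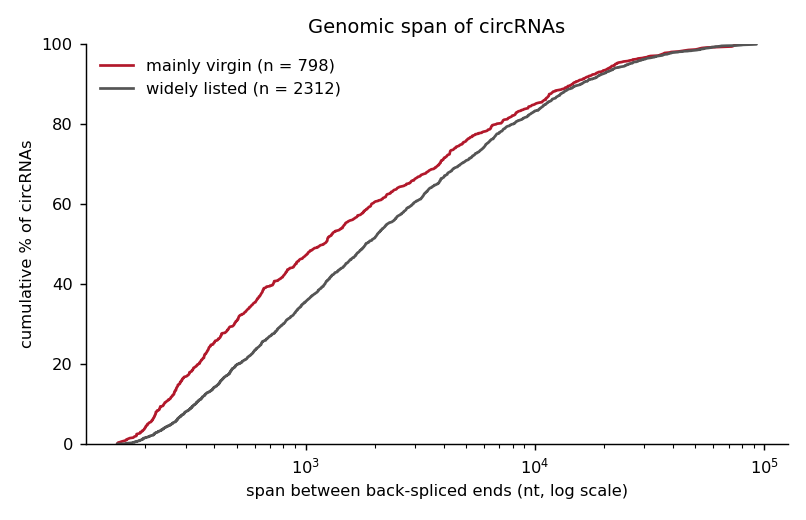
Cumulative percentage of circRNAs by span between the back-spliced ends (nt, log axis) for the 798 listed mainly in virgin ovaries and the 2312 widely listed ones. The virgin curve lies to the left, with medians of 1202 and 1826 nt, and the curves meet at the longest spans.

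The chosen circRNAs were spread over the genome. On the linkage groups (LG, the chromosomes of this assembly) lay 776, and 22 lay on unplaced scaffolds. Per linkage group they made up 2.94% (LG14, 30 circRNAs) to 5.30% (LG13, 48) of all circRNAs listed there. LG1 held 110, or 13.8% of the set, against 15.2% of the widely listed ones and 14.0% of all. LG5 held 8.65% of the set, against 5.41% of the widely listed and 6.74% of all circRNAs. The shares were 5.39%, 2.90% and 4.30% for LG16 and 6.64%, 9.34% and 7.27% for LG2, so the set lay nearer to all circRNAs on both. On the plus strand lay 44.6% of the set and 48.7% of all circRNAs.

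In relation to widely listed circRNAs of the same strand, 503 (63.0%) overlapped none of their spans and 150 (18.8%) lay inside one. Among those inside none, 105 (13.2% of the 798) contained one and 40 (5.01%) overlapped in part. A circRNA inside one span was not counted again if it contained another. Those counted as containing a widely listed circRNA had a median span of 11160 nt, those inside one 818 nt and those apart 729 nt. CircRNAs whose spans overlapped in a chain along the same strand were taken as one locus, and there were 7974 loci. Of these, 604 held at least 1 of the 798, 117 held at least 2, and 252 also held a widely listed circRNA. Loci made up of chosen circRNAs alone numbered 148, and 138 of these held a single circRNA.

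A start or end, at the same base on the same chromosome and strand, was shared with a widely listed circRNA by 231 of the 798 (28.9%). Of them 107 shared only the acceptor side, 99 only the donor side and 25 shared each side with some widely listed circRNA. Among the widely listed themselves 56.7% shared a site with another, and among circRNAs that were not widely listed 20.9% did. For the sets chosen for laying, caged and released the shares were 33.6%, 40.9% and 37.2%. Sharing went with span: 21.2% of the chosen circRNAs up to 500 nt shared a site, 19.3% of those over 500 and up to 2000 nt, 35.1% of those over 2000 and up to 10000 nt, and 53.7% of longer ones. The median virgin CPM was 18.9 with and 18.8 without a shared site, again near the floor of the set. Another member of the set shared a site with 135 of the 798.

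The 231 circRNAs had 309 widely listed partners, that is, circRNAs with the same donor or acceptor. Relative to its most abundant partner, the chosen circRNA was longer in 115 cases and shorter in 116, and had a median of 11.8% of the partner's virgin reads. It had more reads than the partner in 9 cases. The most abundant partner was ame_circ_0004652 on LG13 (5147066 to 5147943, minus strand), with 8748, 7641 and 7623 CPM in the virgin libraries and 9602, 8590 and 9786 in the laying ones. Those groups overlapped and the difference did not pass the test, with a log2 fold change of 0.37 (SE 0.21, edgeR adjusted p = 0.224). Its acceptor was shared by ame_circ_0004651 (2, 2 and 3 virgin reads, none elsewhere) and ame_circ_0004646 (2, 0 and 4 virgin reads). The latter also had 8 reads in caged replicate 3 and 2 in released replicate 1. Its mean CPM was 15.1 in caged and 14.5 in virgin ovaries.

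Another abundant partner was higher in laying ovaries, while its member was listed mainly in virgin ones. On LG8, ame_circ_0019211 (8553987 to 8600528, minus strand) rose from 2577, 3399 and 2628 CPM in virgin to 7728, 4991 and 5847 in laying ovaries, a log2 fold change of 1.28 (SE 0.25, edgeR adjusted p = 9.04e-04). The member with the same acceptor, ame_circ_0019217, had 0, 2 and 4 virgin reads and 2 reads in laying replicate 1. On LG1, ame_circ_0010013 was higher in laying ovaries, with 4526 ± 782 against 2590 ± 344 CPM and an edgeR adjusted p of 0.0256, but this call was lost without virgin replicate 2 (adjusted p = 0.0681), virgin replicate 3 (0.0913) or laying replicate 2 (0.156). Its member ame_circ_0010011 had 9, 0 and 7 virgin reads but also 18 reads in caged replicate 3 and 13 in released replicate 2.

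Some shared sites were of near-identical rings. On LG2, ame_circ_0010759 ended at 10831838 and its partner ame_circ_0010758 at 10831810, with 5 virgin reads against 2558. On LG7, ame_circ_0017656 ended at 593813 and ame_circ_0017657 at 593835, with 5 virgin reads against 3451, and ame_circ_0017659 used the same donor over 9354 nt. These partners did not pass the test in laying vs virgin (edgeR adjusted p = 0.724 and 0.258). On LG10, ame_circ_0000800 fell from 5622 ± 518 to 3046 ± 422 CPM (edgeR adjusted p = 0.0304), a call that was lost under 9 of the alternative settings, with an adjusted p of 0.209 when no filter on low counts was applied. Its member ame_circ_0000798 had 0, 4 and 2 virgin reads and 3 reads in caged replicate 1.

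All circRNAs with enough reads were tested in one edgeR quasi-likelihood fit over the 4 groups, with Benjamini-Hochberg adjustment over the 3215 that passed the filter on low counts and a threshold of 0.05. Only 44 of the 798 passed that filter, which a member can do through its virgin counts alone, so their results describe the selection: 9 were lower in laying, 6 in caged and 5 in released than in virgin ovaries, and none was higher. The share of all tested circRNAs called lower was 10.3%, 8.12% and 7.99% in these comparisons, and nothing is read from the members' count against it. The comparisons share the virgin libraries, so they are given side by side and not as independent evidence.

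The rule did not use the counts of the partners themselves, but it did use those of their members in the same virgin libraries. In laying vs virgin, 302 of the 309 partners were tested, and 62 (20.5%) were lower and 27 (8.94%) higher in laying ovaries. Over all 2237 widely listed circRNAs tested, 11.2% were lower and 12.8% higher, and of the 1935 that were no partner 9.77% were lower. The median log2 fold change was -0.48 for partners and 0.01 for all widely listed circRNAs. In caged vs virgin, 19.9% of partners were lower and 10.3% higher, against 10.1% and 13.6% of the widely listed. In released vs virgin the shares were 18.5% (56 partners) and 7.62%, against 9.21% and 11.6%, and the lower calls numbered 36 without virgin replicate 1 and 37 without released replicate 1. With no filter on low counts, 40 partners were lower in laying and 36 in caged ovaries. Higher partners numbered 17 in laying ovaries without laying replicate 2, and 15 in released ones, from 23, without virgin replicate 3 or released replicate 2. The partners of the sets chosen for other groups leaned to their own group to differing degrees. Of the 142 tested partners of mainly laying circRNAs, 15.5% were higher in laying vs virgin, near the 12.8% of the widely listed. A further 5.63% were lower, against 11.2%. For mainly caged circRNAs 21.3% of partners were higher and 7.53% lower in caged vs virgin, against 13.6% and 10.1% of the widely listed. For mainly released ones 19.6% were higher and 4.05% lower in released vs virgin, against 11.6% and 9.21%.

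The partners with the smallest p among those that fell were all several-fold lower in each laying library. On LG3, ame_circ_0012698 (2782991 to 2783262, plus strand) had 2964, 2557 and 3534 CPM in virgin and 532, 448 and 550 in laying ovaries, a 5.35-fold fall (log2 -2.42, SE 0.30, edgeR adjusted p = 7.01e-06). The members with the same donor, ame_circ_0012689 (12, 0 and 14 virgin reads) and ame_circ_0012700 (3, 0 and 3), were listed in no other library. On LG12, ame_circ_0003467 (1332757 to 1336368, minus strand) fell from 2870, 1384 and 2342 to 360, 172 and 101 CPM, 9.31-fold (adjusted p = 9.05e-06). The groups did not overlap for either circRNA, and the fall was 4.36-fold and 3.95-fold in caged and 4.23-fold and 9.37-fold in released ovaries.

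The other partners of this rank were ame_circ_0001024 on LG10, from 1267 ± 186 to 217 ± 47.1 CPM, ame_circ_0014349 on LG4, from 1886 ± 268 to 365 ± 133 CPM, and ame_circ_0014986 on LG5, from 3312 ± 120 to 915 ± 103 CPM (edgeR adjusted p = 1.26e-05, 1.82e-05 and 2.69e-05). The member tied to ame_circ_0014349 by its acceptor, ame_circ_0014345, began at 9597115, the start of the abundant ame_circ_0014344 described above. Its virgin reads were 7, 0 and 8.

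Partners that rose were fewer. On LG1, ame_circ_0008724 (18161283 to 18167182, minus strand) had 124, 211 and 134 CPM in virgin and 922, 885 and 909 in laying ovaries, a 6.71-fold rise (log2 2.75, SE 0.33, edgeR adjusted p = 5.08e-06). It lay in the locus of ame_circ_0008720 and ame_circ_0008721, which were each listed in 3 virgin libraries and 2 others. Its own member ame_circ_0008728 had 6, 0 and 5 virgin reads. One locus thus held circRNAs listed mainly in virgin ovaries beside one that rose in laying ovaries. The rise of ame_circ_0008724 was 4.52-fold in caged and 4.32-fold in released ovaries. The others were ame_circ_0016977 on LG6 (1887 ± 537 to 5301 ± 1076 CPM), ame_circ_0007234 on LG16 (852 ± 98.9 to 2372 ± 296), ame_circ_0012299 on LG3 (409 ± 41.3 to 1237 ± 199) and ame_circ_0013039 on LG3 (661 ± 40.3 to 1492 ± 26.8), with rises of 2.52-fold to 3.32-fold.

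**Figure D5:**
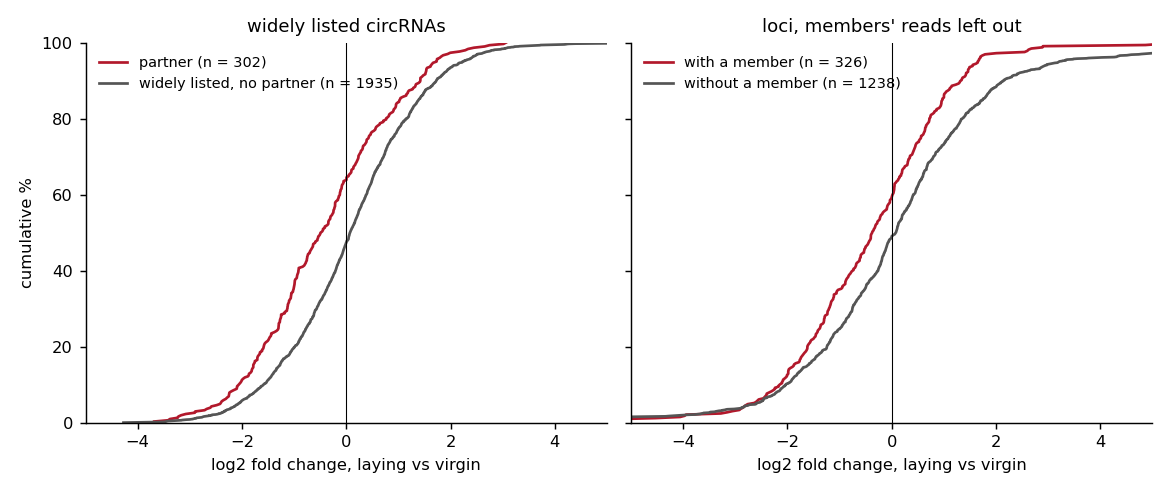
Cumulative percentage against the fitted log2 fold change, laying vs virgin, for widely listed circRNAs (left, partners against non-partners) and for the summed reads of loci without their members' reads (right, loci with against without a member). The curves with members lie to the left, with medians of -0.48 against 0.07 and of -0.37 against 0.08. Partners are kept in the sums of loci, and values beyond the axis are not drawn.

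For each locus the reads of all circRNAs other than the chosen ones were then summed and tested in the same way, over 1564 loci. As for partners, the rule used the members' counts in the same virgin libraries, and a remainder can hold circRNAs just outside the rule. A remainder also keeps the partners tested above, so the locus counts partly repeat the partner counts and are not separate evidence. On LG3, for example, ame_circ_0012698 had a mean of 3018 CPM in virgin ovaries and the remainder of its locus, which includes it, 3379 CPM. Loci of the sets chosen for other groups were not compared. In laying vs virgin 326 loci with a member were tested: 78 (23.9%) were lower and 48 (14.7%) higher in laying ovaries, or 107 and 29 when scaled by library totals in place of TMM. Over all loci 14.6% were lower and 17.5% higher, and of the 1238 loci without a member 12.2% were lower. In caged vs virgin, 21.8% of loci with a member (71) were lower and 49 were higher, or 98 and 31 by library totals, against 11.6% and 16.7% of all loci, and in released vs virgin 19.9% (65) were lower and 49 higher, or 86 and 30 by library totals, against 11.5% and 15.9%. Without virgin replicate 1 the released comparison gave 42 lower and 43 higher. Of the 97 tested loci with 2 or more members, 30.9% were lower and 13.4% higher in laying ovaries. In caged ovaries 26.8% were lower and 13.4% higher, and in released ones 28.9% and 14.4%. Loci of like size without a member were not set beside these. Loci with a member often hold many circRNAs. Among loci with at least 2 other circRNAs, 75 of the 312 with a member were lower and 47 higher in laying ovaries. Of the 954 without a member, 115 were lower and 186 higher.

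On LG7, the remainder of a locus (1597826 to 1654071, plus strand) had 21036, 17492 and 21382 CPM in virgin and 2938, 3329 and 2177 in laying ovaries, a 5.86-fold fall (log2 -2.55, SE 0.23, edgeR adjusted p = 4.79e-08). Its member ame_circ_0017322 had 5, 6 and 3 virgin reads and 3 reads in caged replicate 2, and ame_circ_0017317 and ame_circ_0017310, just outside the rule, lay in the same locus. On LG3, the locus of ame_circ_0012698 (2717765 to 2794852, plus strand) held 4 members, which together fell from 161 ± 34.7 to 5.00 ± 8.66 CPM, a description since the rule chose them. Its other circRNAs fell from 3379 ± 576 to 526 ± 52.5 CPM (log2 -2.42, adjusted p = 5.98e-07). Falls also passed the test at LG2 (14876631 to 14898744, minus strand), LG12 (1332746 to 1343832, minus strand) and LG11 (6799148 to 6799624, plus strand), where the remainder went from 1786 ± 273 to 273 ± 28.1, from 3276 ± 995 to 322 ± 218 and from 4122 ± 1241 to 539 ± 167 CPM.

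In other loci the remainder rose. At LG12 (6733613 to 6743431, plus strand) it went from 1251, 1339 and 1175 CPM in virgin to 6034, 6842 and 5993 in laying ovaries (log2 2.60, edgeR adjusted p = 2.36e-09), while its member ame_circ_0003760 had 2, 0 and 3 virgin reads and 2 reads each in a caged and a released library. The remainder at LG11 (12369434 to 12417156, minus strand) went from 5008 ± 140 to 13257 ± 364 CPM (log2 1.68, adjusted p = 3.17e-07). Its member ame_circ_0002236, with 17, 3 and 3 virgin reads, had 2 reads in laying replicate 1 and 3 in caged replicate 1. Rises also passed the test at LG16 (6903631 to 7012439, plus strand; log2 2.68), LG6 (9962234 to 9973326, plus strand; log2 1.67) and LG8 (7668009 to 7721864, minus strand; log2 1.23).

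The locus with the most members was on LG5 (13088698 to 13092635, minus strand), with 13 of its 89 circRNAs and none of them widely listed. Its members summed to 298 ± 47.5 CPM in virgin ovaries and to 14.6 ± 14.4 in laying ones, a description since the rule chose them. The other circRNAs of this locus fell from 782 ± 65.5 to 123 ± 75.4 CPM, 4.94-fold (log2 -2.30, SE 0.42, edgeR adjusted p = 2.20e-04). The 89 circRNAs used 41 different starts and 41 different ends within less than 4 kb, a density of 22.6 circRNAs per kb, and 62.9% of them were listed in a single library. The most abundant member, ame_circ_0014844 (13090673 to 13091138), had 6, 4 and 6 virgin reads and 3 reads in laying replicate 2.

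On LG16, loci of the same kind lay at 6165216 to 6180100 on the plus strand, with 10 members among 172 circRNAs, and at 6122430 to 6143156 on the minus strand, with 7 among 108. Their remainders fell from 754 ± 136 to 160 ± 50.3 and from 526 ± 216 to 117 ± 29.9 CPM (edgeR adjusted p = 0.00410 and 0.00437). In these loci 82.6% and 82.4% of the circRNAs were listed in 1 library only, against 59.9% in the whole table. Loci with at least 20 circRNAs and none widely listed numbered 21, a class defined after the values had been seen. They held 54 of the 798 (6.77%) and 4.73% of all circRNAs. Without them the chosen circRNAs numbered 744, with a median span of 1390 nt and 31.0% sharing a site.

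Other loci rich in members gave no call of a fall. On LG13, the locus at 5138393 to 5258743 (minus strand) held 8 members among 24 circRNAs. The members summed to 179 ± 104 CPM in virgin ovaries and to 11.5 ± 19.9 in laying ones, a description since the rule chose them. One site on the donor side, at 5215458, was used by 4 of these members, among them ame_circ_0004659 with 9, 0 and 5 virgin reads. The remainder, led by ame_circ_0004652, was 8684 ± 871 CPM in virgin ovaries and 9623 ± 674 in laying ones and did not pass the test (log2 0.42, edgeR adjusted p = 0.0834). On LG6 (3519909 to 3629894, minus strand), 6 members went from 91.7 ± 16.9 CPM to being listed at 0 in every laying library, while the remainder was 657 ± 56.7 and 898 ± 310 CPM. That rise passed the test (log2 0.72, adjusted p = 0.0349), but the call was lost in 9 of the alternative settings. At LG8 (12611595 to 12613088, minus strand, 6 members among 22 circRNAs) the remainder did not pass the test, with a log2 fold change of -2.60, an SE of 1.37 and an adjusted p of 0.161.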

How the data were processed

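Libraries were made from 5 µg of ovary RNA after removal of ribosomal RNA and treatment with RNase R, which degrades linear RNA, and were sequenced as 150 bp paired-end reads that keep the strand, per the labels' protocols. The reference was Amel_4.5, per the labels' protocols, and Bowtie is named without a version in the submitters' processing notes. Not given in the sources used here are the circRNA caller, its thresholds and whether starts count from 0 or 1. The authors deposited a raw read count per circRNA and library. The columns headed TPM, per the file headers, hold CPM with no length term: dividing each count by its library total gave the deposited CPM to within 4.989e-06. No genome of this build was used here, so no gene or sequence is given.

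Members were found by the rule in the opening. A locus is a chain of overlapping spans on one strand, and a shared site is an identical start or end. edgeR 4.0.16 in R 4.3.3 was used to test the counts (TMM scaling, quasi-likelihood F test, all 4 groups in one fit), after filterByExpr had removed low counts (min.count 5, min.total.count 15); reads of loci were summed without the members. Fold changes come from this fit, and printed CPM from library totals. DESeq2 1.42.0 served as an alternative, and the script was tested on simulated data. No library repeated another.

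The members and lists were chosen with earlier results of these data known. Named circRNAs are the 12 with the highest virgin CPM, 6 further ones listed in 3 virgin and 0 other libraries, the 3 longest and 3 shortest, 8 with the most abundant partners, the 5 partners and 5 loci per direction with the smallest p in laying vs virgin, the 6 loci with the most members, and 3 on each side of the rule's threshold. Members of those loci were named as well, after their values were seen. The held-out libraries, the partners of the sets for other groups and the class of dense loci were added after seeing the data.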

Additional observations from a re-analysis of the deposited data

How the results depend on the processing

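The number of chosen circRNAs depended on the definition and on depth. It was 432 at 5 or more reads, 274 when no other library was allowed and 149 when all virgin libraries were required. Leaving out 1 library gave 227 to 962, with 227 without virgin replicate 1, the deepest of its group, and 329 without virgin replicate 3. The median virgin CPM was 45.7 at the CPM level of 30.1, 53.3 at 5 or more reads and 37.2 in all virgin libraries, and ran from 18.9 to 36.0 with 1 library left out. The median span was 1518 nt at the CPM level, 1529 nt at 5 or more reads, 887 nt with no other library and 849 nt in all virgin libraries, and ran from 728 to 1302 nt with 1 library left out. The share with a shared site was 36.0%, 38.0% and 23.4% under the first 3 of these definitions, 20.9% for partners listed in all 12 libraries and 38.2% for partners listed in at least 1 library of each group. Leaving out the dense loci, chosen after seeing the data, gave 744 circRNAs, 1390 nt and 31.0%.

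Added over both directions, all 117 alternative counts of called partners and loci remainders were within 1.5 times the main count, and 116 held more lower than higher calls. The exception was the remainder in released vs virgin without virgin replicate 1, with 43 higher and 42 lower. Lower calls alone moved further: partners in released vs virgin went from 56 to 36 without virgin replicate 1 and 37 without released replicate 1, and with no filter partners went from 62 to 40 in laying and from 60 to 36 in caged vs virgin. Higher calls of partners went from 27 to 17 without laying replicate 2 in laying vs virgin, and from 23 to 15 without virgin replicate 3 or released replicate 2 in released vs virgin. Scaling by library totals moved the split of remainders from 48 higher and 78 lower to 29 and 107 in laying vs virgin, from 49 and 71 to 31 and 98 in caged, and from 49 and 65 to 30 and 86 in released vs virgin. In laying vs virgin it moved the median log2 fold change of all circRNAs tested from 0.00 to -0.15 and that of partners from -0.48 to -0.65. Over all circRNAs, released vs virgin gave 404 to 622 calls with 1 library left out, the lowest without virgin replicate 3. Replicate numbers did not pair the libraries: of 18 same-numbered pairs 1 had a correlation of deviations over 0.1, and 1 library correlated best with its own number. The fit with a replicate block is an alternative only: it called 82 partners, 117 remainders and 668 circRNAs in laying vs virgin, against 89, 126 and 733 without the block. Of 607 comparisons of a named circRNA or locus with an alternative, 585 kept their side of the threshold, 21 lost it, 1 gained it (the LG8 locus at 12611595, without laying replicate 3, adjusted p = 0.0231) and 0 changed direction.

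Depth limits the set: the smallest count above 0 is 2, and 2 reads are worth 30.1 CPM in virgin replicate 2 but 9.93 CPM in virgin replicate 1.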
